A study of Mus musculus with 6 samples.

Results

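The Hsd3b genes encode the 3-beta-hydroxysteroid dehydrogenases. They were taken as every gene of the deposited table whose symbol starts with Hsd3b followed by a digit, which gave 7 of 36652 genes. Hsd3b1, Hsd3b2, Hsd3b3, Hsd3b6 and Hsd3b7 were the 5 named when the set was proposed with results of these libraries known, and Hsd3b4 and Hsd3b5 met the same rule. The libraries came from whole testes of 8-week-old mice, 3 labelled WT and 3 labelled Ccdc117ko. The labels give no strain, do not describe the Ccdc117ko allele, and do not say whether replicates are separate mice, so each p-value reflects only how far these libraries varied, which may be technical. The title of the series speaks of raised androgen in mice deficient in Ccdc117, and the comparison therefore asks how the enzymes of androgen synthesis differed between the genotypes.

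Steroidogenic 3-beta-hydroxysteroid dehydrogenases oxidise the 3-beta-hydroxyl group of pregnenolone and dehydroepiandrosterone and shift the ring double bond, which yields progesterone and androstenedione on the way to testosterone. In the mouse testis the reaction belongs to Leydig cells. Hsd3b1 is known from both fetal and adult Leydig cells and from the adrenal cortex, while Hsd3b6 is known as an isoform of adult Leydig cells that appears after birth. Hsd3b2 and Hsd3b3 are known mainly from liver and kidney, Hsd3b4 and Hsd3b5 act mainly as 3-ketosteroid reductases, and Hsd3b7 acts on 7-alpha-hydroxylated sterols in bile acid synthesis.

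On the GRCm38 assembly, which is the mm10 build named in the submitters' processing notes, 6 of the 7 genes lay on the minus strand of chromosome 3 within 361 kb, from 98499071 to 98859794. Hsd3b1 (ENSMUSG00000027871, chr3:98852194-98859794) and Hsd3b6 (ENSMUSG00000027869, chr3:98805504-98814443) formed its upper end, followed downwards by Hsd3b3 (chr3:98741523-98763127), Hsd3b2 (chr3:98709255-98724543), Hsd3b5 (chr3:98618634-98630252) and Hsd3b4 (chr3:98499071-98510514). Hsd3b7 (ENSMUSG00000042289) stood apart on the plus strand of chromosome 7, at chr7:127800604-127803802. The annotation gave each of the 6 genes on chromosome 3 a coding sequence of 1122 bases, against 1110 for Hsd3b7.

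The isoforms are near copies, and counting reads for each gene rests on the bases that differ. The first 90 coding bases are shown for the 6 genes of chromosome 3 from GENCODE M21 (GRCm38), 5′ to 3′, starting at the A of the start codon, with capitals where a base differs from Hsd3b1 at the same position.
Hsd3b1: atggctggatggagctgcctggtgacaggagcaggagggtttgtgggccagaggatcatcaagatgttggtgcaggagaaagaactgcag
Hsd3b6: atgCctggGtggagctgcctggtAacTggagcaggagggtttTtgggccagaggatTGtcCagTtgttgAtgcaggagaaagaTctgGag
Hsd3b2: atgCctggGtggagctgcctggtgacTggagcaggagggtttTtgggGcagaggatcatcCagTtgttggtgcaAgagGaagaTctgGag
Hsd3b3: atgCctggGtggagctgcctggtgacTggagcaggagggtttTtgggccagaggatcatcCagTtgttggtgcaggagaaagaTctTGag
Hsd3b4: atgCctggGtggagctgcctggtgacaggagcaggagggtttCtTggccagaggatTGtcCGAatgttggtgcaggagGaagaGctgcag
Hsd3b5: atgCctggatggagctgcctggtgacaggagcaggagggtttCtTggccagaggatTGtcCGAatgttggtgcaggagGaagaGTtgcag
Within this stretch Hsd3b6 differed from Hsd3b1 at 12 positions, and the other 4 genes differed from it at 9 to 11. Over the whole coding sequence, aligned with the fewest edits, Hsd3b1 and Hsd3b6 were identical in 90.1% of aligned columns. Hsd3b6 was closer to Hsd3b2 (94.4%) and Hsd3b3 (94.5%), Hsd3b4 was closest to Hsd3b5 (95.2%), and Hsd3b7 reached only 57.9% to 58.7% with any of them.

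**Figure D1:**
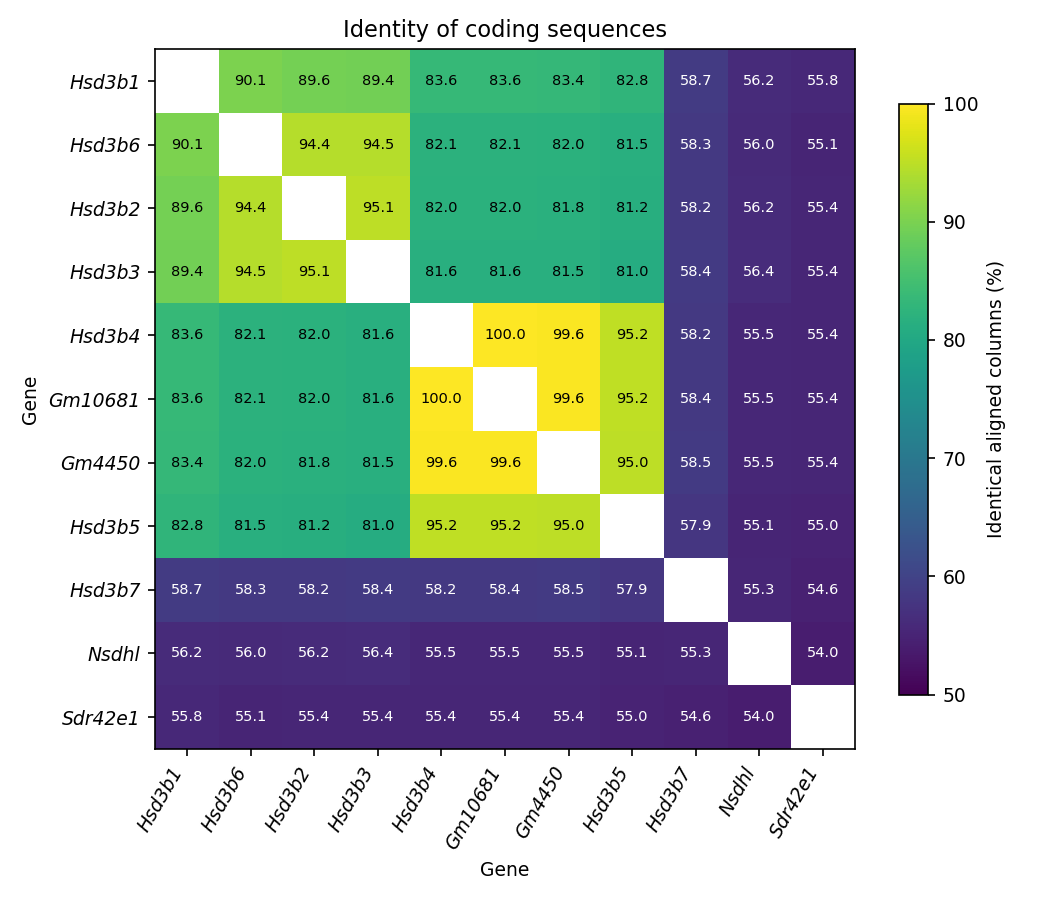
Percent of identical aligned columns between the coding sequences of the Hsd3b genes, 2 predicted copies (Gm10681 and Gm4450) and 2 sequence relatives (Nsdhl and Sdr42e1), in rows and columns, with colour from 50 to 100%. Hsd3b1, Hsd3b6, Hsd3b2 and Hsd3b3 form a block at 89.4% or above, Hsd3b4, Gm10681, Gm4450 and Hsd3b5 another at or above 95%, and Hsd3b7 lies at 57.9 to 58.7% with the other Hsd3b genes.

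The abundant isoforms could mostly be told apart by sequence. Of the 50-base words in the longest coding transcript of Hsd3b1, 4.98% occurred in a transcript of another gene, and 2.10% occurred in Hsd3b6. For Hsd3b6 the share was 16%, most of it with Hsd3b2 (13.5%). The rare isoforms were less distinct: 28.7% of the words of Hsd3b3 and 25.5% of those of Hsd3b2 were shared, and all words of Hsd3b4 occurred in its predicted copy Gm10681. Hsd3b7 shared 93.9% of its words with Gm49388, an overlapping gene model that was not analysed here. The values of Hsd3b2, Hsd3b3, Hsd3b4, Hsd3b5 and Hsd3b7 are therefore uncertain where reads could be split between copies. Zfp697 on the plus strand overlaps Hsd3b2, Hsd3b3, Hsd3b4 and Hsd3b5, and whether strand was used in counting is not given in the sources used here.

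Counted reads came to 35791616 to 43461692 in the 6 libraries, and no replicate pair agreed within sampling noise (chi-square of 4.99 to 8.08 per degree of freedom over genes). Ccdc117 itself (chromosome 11, 5528887 to 5542187) had 3657, 3826 and 3931 normalized counts in the WT libraries against 3478, 3772 and 3908 in the libraries labelled Ccdc117ko, a log2 difference of -0.03 (SE 0.05, limma adjusted p = 0.763). The gene total therefore does not check the labels, and the text keeps to the libraries labelled Ccdc117ko. Of 32783 genes tested with limma, 1212 were higher and 1016 lower in those libraries at an adjusted p under 0.05, and with trends in transcript length and GC content removed the split was 1437 higher to 423 lower.

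Hsd3b6 was higher and Hsd3b1 lower in the libraries labelled Ccdc117ko, by similar factors. These differences are among the results with which the genes were chosen, so they are given as a description, without a test. Normalized counts, which are reads divided by a scaling factor for each library, are given here and below in the order of the replicate numbers. For Hsd3b6 they were 2568, 1849 and 2162 in WT against 3992, 4092 and 3773 in Ccdc117ko. Every Ccdc117ko library lay above every WT library. The WT mean was 2193 ± 360 and the Ccdc117ko mean 3953 ± 163 (SD, n = 3 each), a 1.80-fold level and a log2 difference of 0.86 (SE 0.11).

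For Hsd3b1 the order was the opposite. Its normalized counts were 3192, 3200 and 2843 in WT against 1664, 1684 and 1605 in Ccdc117ko. Every Ccdc117ko library lay below every WT library. Mean levels were 3078 ± 204 in WT and 1651 ± 40.8 in Ccdc117ko (SD, n = 3 each), a level of 0.536 of WT and a log2 difference of -0.90 (SE 0.06). Over 21 other settings, leaving out each library included, the log2 difference ranged from 0.75 to 0.98 for Hsd3b6 and from -0.95 to -0.87 for Hsd3b1.

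**Figure D2:**
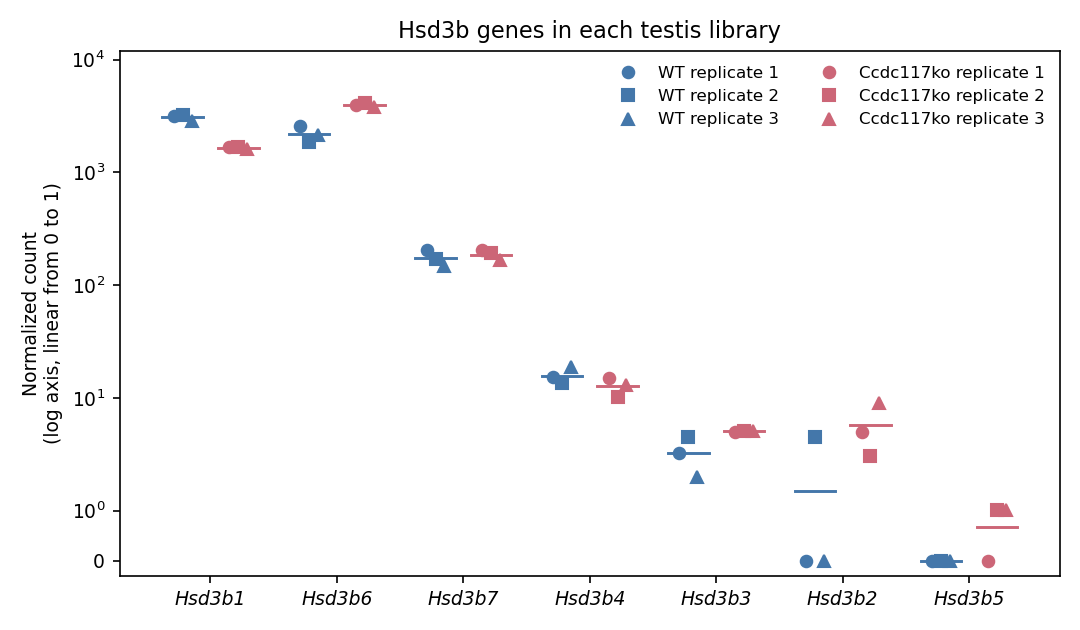
Normalized counts of the 7 Hsd3b genes in each of 3 WT (blue) and 3 Ccdc117ko (red) libraries on a log axis that is linear from 0 to 1, with symbols for replicates and lines for group means. Hsd3b6 and Hsd3b1 are the only genes above 1000, and they trade places between the genotypes, with Hsd3b1 at 3078 and Hsd3b6 at 2193 in WT and 1651 and 3953 in Ccdc117ko.

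Hsd3b7, the bile acid enzyme, had 203, 171 and 147 normalized counts in WT against 203, 191 and 166 in Ccdc117ko. The groups overlapped. Its mean was 174 ± 27.9 in WT and 187 ± 18.7 in Ccdc117ko (SD, n = 3 each), with a log2 difference of 0.11 (SE 0.14).

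The other 4 isoforms were rare. Hsd3b4 had 14, 15 and 19 reads in WT against 15, 10 and 13 in Ccdc117ko, and the groups overlapped, with a log2 difference of -0.29 (SE 0.29). Its identical copy Gm10681 had 15, 15 and 17 reads in WT and 14, 10 and 12 in Ccdc117ko, close to those of Hsd3b4 in every library. Hsd3b3 had 3, 5 and 2 reads in WT and 5 in each Ccdc117ko library.

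On the normalized scale the 3 Ccdc117ko values of Hsd3b3, at 5.0 to 5.08, lay above the WT values of 1.97 to 4.49, although 1 WT library had the same 5 reads. The log2 difference of Hsd3b3 was 0.56 (SE 0.39). Hsd3b2 had 0, 5 and 0 reads in WT and 5, 3 and 9 in Ccdc117ko, and the groups overlapped. Its log2 difference of 1.83 (SE 0.74) depended on the pseudocount, being 3.88 with 0.1 and 0.75 with 5 in place of 1. Hsd3b5 had no read in WT and 0, 1 and 1 in Ccdc117ko, which is under a floor of 3 reads, and no fold is given.

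A mean of at least 0.5 normalized counts, required for the test, was met by 6 of the 7 genes and missed by Hsd3b5. Of those 6, Hsd3b6 was called higher and Hsd3b1 lower at an adjusted p under 0.05, where 6.80% of all genes tested were called, 3.70% higher and 3.10% lower. The 3 values of each genotype did not overlap for Hsd3b1, Hsd3b6 and Hsd3b3, as for 27.0% of all genes tested. Of the 6732 genes whose mean reached 1000 normalized counts, 18.5% were called and 0.134% (9 genes, the 2 isoforms among them) had a log2 difference at least as large as that of Hsd3b6 in either direction. Since the genes were chosen with this contrast known, nothing is read from these counts. The calls depended on the filter together with the number of libraries. With the minimum mean of 0.5, both were lost without WT replicate 2, Ccdc117ko replicate 2 or Ccdc117ko replicate 3. Under that minimum 1 was lost without WT replicate 3 or Ccdc117ko replicate 1. With a mean of at least 10 required, in fits added after seeing the data, both calls held whichever library was left out.

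The opposite differences left the total nearly level. The sum over the 7 genes came to 5981, 5242 and 5173 normalized counts in WT against 5884, 5986 and 5573 in Ccdc117ko. The groups overlapped, with means of 5465 ± 448 and 5815 ± 215 (SD, n = 3 each) and a ratio of 1.06. Leaving out 1 library at a time or rescaling moved this ratio between 1.04 and 1.12.

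The make-up of that total differed, and shares of reads within a library do not depend on the scaling between libraries. Hsd3b6 took 42.9% of the Hsd3b reads in WT replicate 1 (95% Wilson interval 41.6 to 44.2), 35.3% in replicate 2 (34.1 to 36.5) and 41.8% in replicate 3 (40.5 to 43.1). In the Ccdc117ko libraries it took 67.8% (66.6 to 69.0), 68.4% (67.2 to 69.5) and 67.7% (66.5 to 68.9). The intervals cover counting error only. WT replicate 2 stood below the other WT libraries, while the intervals of the 3 Ccdc117ko libraries overlapped one another.

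The share of Hsd3b1 moved from 56.5 ± 4.05% in WT to 28.4 ± 0.357% in Ccdc117ko (SD, n = 3 each), and that of the remaining 5 genes was 3.55 ± 0.260% and 3.63 ± 0.214%. The ratio of Hsd3b6 to Hsd3b1 reads stood at 0.804, 0.578 and 0.760 in WT against 2.40, 2.43 and 2.35 in Ccdc117ko. Hsd3b1 was the larger of the pair in all 3 WT libraries and the smaller in all 3 Ccdc117ko libraries. On the log2 scale the mean ratio was -0.50 ± 0.26 in WT and 1.26 ± 0.02 in Ccdc117ko, a difference of 1.76 that ranged from 1.61 to 1.85 when 1 library was left out.

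**Figure D3:**
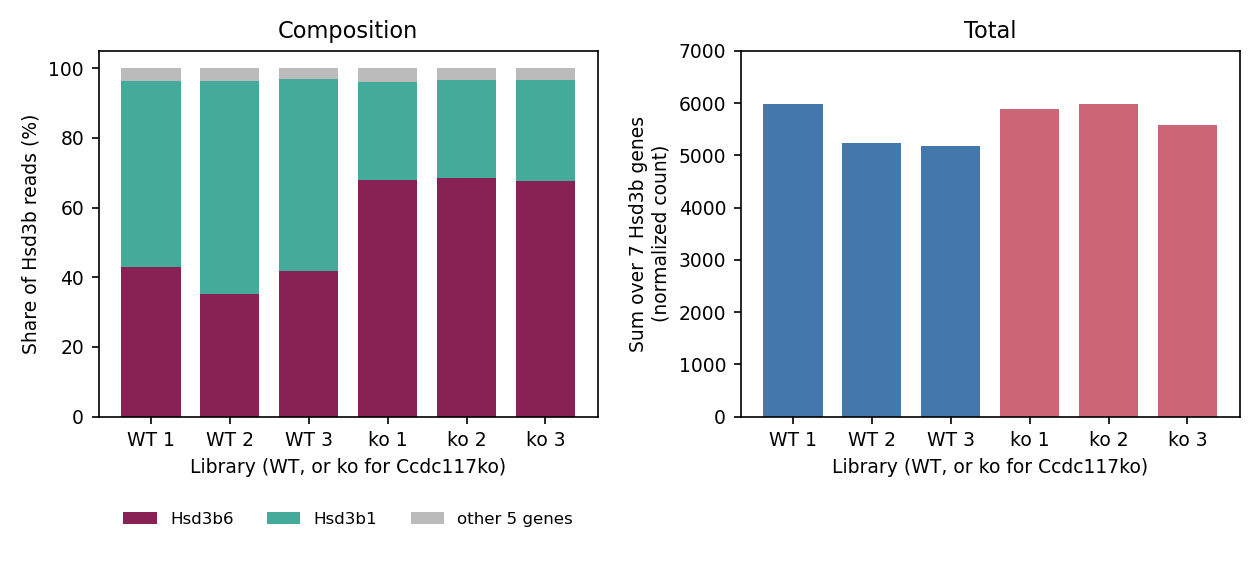
Left, share of all Hsd3b reads in percent taken by Hsd3b6, Hsd3b1 and the other 5 genes in each library; right, the sum of the 7 genes in normalized counts (bars from 0). Hsd3b6 takes 35.3 to 42.9% in WT and 67.7 to 68.4% in Ccdc117ko, while the sums, 5173 to 5981 and 5573 to 5986, overlap.

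Per kilobase of the longest coding transcript, which allows levels of different genes to be set side by side, Hsd3b1 led in WT with 1659 ± 110 normalized counts per kb, followed by Hsd3b6 with 1217 ± 200 (SD, n = 3 each). In Ccdc117ko the order was Hsd3b6 with 2193 ± 90.6 and then Hsd3b1 with 890 ± 22 per kb. The pair did not overlap in either genotype. Hsd3b7 was the third in both, at 95.1 ± 15.2 and 102 ± 10.2 per kb, and Hsd3b4 the fourth at 9.80 ± 1.65 and 7.92 ± 1.51 per kb.

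Among the rarest genes Hsd3b3 stood at 2.11 ± 0.822 and Hsd3b2 at 0.405 ± 0.701 per kb in WT. On transcript length their WT values did not overlap, with 1.28 to 2.93 for Hsd3b3 and 0 to 1.21 for Hsd3b2, whereas on coding length they did. In Ccdc117ko Hsd3b3 stood at 3.29 ± 0.0274 and Hsd3b2 at 1.54 ± 0.832 per kb, and the order of these 2 turned when coding length was used in place of transcript length. Hsd3b5 came last. Among 32704 genes with a length, Hsd3b1 went from the 93.0th percentile of levels per kb in WT to the 88.1th in Ccdc117ko, and Hsd3b6 from the 90.8th to the 94.4th.

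On the same scale per kb, the isoforms sat between the other enzymes of testosterone synthesis. Cyp17a1, the 17-alpha-hydroxylase and lyase, had 3891 ± 334 in WT and 5381 ± 352 in Ccdc117ko, and Cyp11a1, the side-chain cleavage enzyme, 2296 ± 363 and 2641 ± 135. Star, which brings cholesterol to the inner mitochondrial membrane, had 436 ± 102 and 1007 ± 19.5, below both isoforms in WT and above Hsd3b1 in Ccdc117ko. Hsd17b3, which makes testosterone from androstenedione, had 716 ± 63.8 and 618 ± 59.1. All these are normalized counts per kb (SD, n = 3 each).

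Of the 17 other genes of the testosterone pathway, all tested, 4 rose, none fell and 13 did not pass the test, with a median log2 difference of 0.12 against 0.00 over all genes. Limma called 6.80% of all genes tested, and 18.5% of the 6732 genes averaging 1000 normalized counts or more. These shares stand beside the counts of the lists below as well. Whether the pathway was called more often than other genes of similar level was not tested. At an unadjusted p under 0.05, 6 of the 17 were higher and 2 lower. Voom called 6 higher and 0 lower, and limma with genes of a mean under 10 left out called 6 higher and 1 lower. Over all genes tested, 7436 of 32783 had an unadjusted p under 0.05 and voom called 2425. With genes of a mean under 10 left out, limma called 3798 of 22878. The list was put together with earlier results of these data known, so its direction is not independent evidence.

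Star rose most, from 1464, 1592 and 2237 normalized counts in WT to 3985, 4139 and 4093 in Ccdc117ko, a log2 difference of 1.23 (SE 0.14, limma adjusted p = 0.0108). No WT library reached a Ccdc117ko library. Cyp17a1 rose from 9350 ± 802 to 12929 ± 846 (log2 difference 0.47, SE 0.07, adjusted p = 0.0169). Fdx1, the ferredoxin that passes electrons to Cyp11a1, rose from 1174 ± 31.8 to 1462 ± 59.4 (0.32, SE 0.05, adjusted p = 0.0180), and Srd5a1, a steroid 5-alpha-reductase, from 179 ± 14.4 to 246 ± 23.9 (0.46, SE 0.11, adjusted p = 0.0458). Without WT replicate 2 or any 1 of the Ccdc117ko libraries these 4 calls were lost, at adjusted p from 0.0603 to 0.153. Without WT replicate 3 Star held (0.00772) and the other 3 were lost (0.0916 to 0.165). Without WT replicate 1 Srd5a1 was lost (0.115). With a mean of at least 10 required, Star, Cyp17a1 and Fdx1 held whichever library was left out. Limma adjusted p was then up to 0.00198, 0.00812 and 0.0255, while that of Srd5a1 reached 0.0720.

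The remaining steps did not pass the test. Scarb1, the receptor that takes up cholesterol from lipoproteins, had a log2 difference of 0.26 (adjusted p = 0.0501), and Acbd3, a partner of the mitochondrial protein Tspo, also 0.26 (adjusted p = 0.0501). Cyp11a1 differed by 0.21 (SE 0.10, adjusted p = 0.259), Por, the P450 reductase, by 0.14 (adjusted p = 0.232) and Tspo by 0.12 (adjusted p = 0.580). Hsd17b3 differed by -0.21 (SE 0.09, adjusted p = 0.209) and Lhcgr, the receptor for luteinizing hormone, by -0.41 (SE 0.14, adjusted p = 0.126). With genes of a mean under 10 left out, Scarb1 (limma adjusted p = 0.0104) and Acbd3 (0.0140) were called higher and Lhcgr (0.0427) lower. Stard4, Cyb5a, Cyb5b, Fdxr, Cyp19a1 and Hsd17b1 lay between -0.09 and 0.11. Set beside these 17 genes, the log2 difference of Hsd3b1 was lower than all of theirs, and that of Hsd3b6 was higher than all but that of Star.

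The name under which the set was proposed speaks of adult and fetal Leydig cells, and their markers were checked. Of 7 adult Leydig markers 1 fell, none rose and 6 did not pass the test, with a median log2 difference of -0.05, and with genes of a mean under 10 left out 1 was called higher and 2 lower. Vcam1, an adhesion protein, fell from 2321 ± 166 to 1564 ± 107 normalized counts (log2 difference -0.57, SE 0.07, limma adjusted p = 0.0124). Without any 1 library other than WT replicate 1 the adjusted p was 0.0598 to 0.110. With a mean of at least 10 required it was up to 0.00440 whichever library was left out. Insl3, the Leydig cell peptide hormone, had 48328 ± 3955 and 57057 ± 5261 (0.24, adjusted p = 0.113), and Sult1e1, an estrogen sulfotransferase, 561 ± 95.2 and 396 ± 62.1 (-0.50, adjusted p = 0.0832). With genes of a mean under 10 left out, Insl3 was the marker called higher (limma adjusted p = 0.0267), and Vcam1 and Sult1e1 were those called lower. The summed level of the list was 56281 to 64559 in WT and 62143 to 73208 in Ccdc117ko, which overlap. Most of this sum is Insl3, so it says little of the other markers.

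Of 3 fetal Leydig markers, Mc2r was not analysed here and the other 2 were low. Thbs2 had 21.1 ± 2.41 and 23.1 ± 11.4 normalized counts (log2 difference 0.00) and Dlk1 71.3 ± 3.49 and 78.6 ± 5.51 (0.14, adjusted p = 0.593). Neither was called by limma or voom, neither had an unadjusted p under 0.05, and their sums, 87.0 to 97.7 in WT and 94.5 to 114 in Ccdc117ko, overlapped. No shift between adult and fetal Leydig cells was seen in the marker lists. They cannot decide whether there was one, since the 2 fetal genes were low and the adult markers differed both ways. In whole testis, fewer cells of a type and less RNA per cell cannot be told apart.

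Set against the geometric mean of the 7 adult Leydig markers in each library, a reference added after seeing the data, the isoforms had these levels. Hsd3b6 went from 1.32 ± 0.16 to 2.32 ± 0.06 log2 units above that reference and Hsd3b1 from 1.82 ± 0.10 to 1.06 ± 0.04 (SD, n = 3 each). The differences were 1.0 and -0.76, beside 1.37 for Star, 0.61 for Cyp17a1, 0.35 for Cyp11a1 and 0.25 for Hsd3b7. The reference itself differed by -0.14. Its markers differed both ways, as the values of Insl3, Vcam1 and Sult1e1 above show, and the rare Hsd11b1, a glucocorticoid-activating reductase with 18.6 ± 4.22 normalized counts in WT, weighs as much in it as Insl3. The part of Leydig cell content in the Hsd3b differences was not tested.

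**Figure D4:**
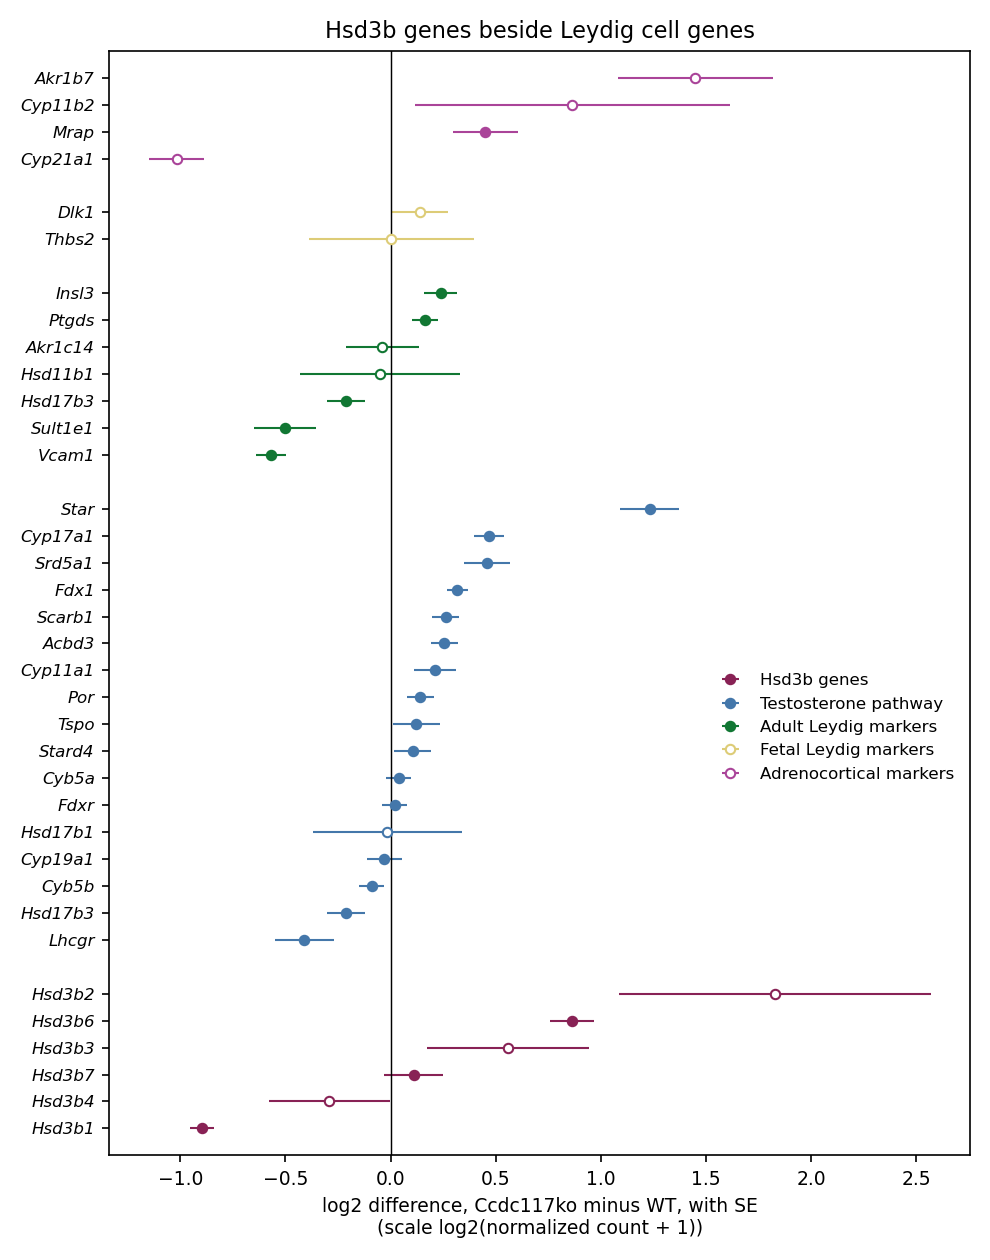
Log2 difference between Ccdc117ko and WT means with its SE, on the log2(normalized count + 1) scale, for the 6 Hsd3b genes tested and the tested genes of 4 lists; filled points have a mean of at least 100 normalized counts and open points a lower one. Among filled points Hsd3b1 lies lowest at -0.90, and Star (1.23) and Hsd3b6 (0.86) lie highest.

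Hsd3b1 and Hsd3b6 are known also from the adrenal cortex, and markers of that tissue were checked for this reason. Of 6 listed, Cyp11b1 and Mc2r were not analysed here, and of the 4 tested 1 fell, none rose and 3 did not pass the test, with a median of 0.66. At an unadjusted p under 0.05, 2 were higher and 1 lower, and voom called 0 higher and 1 lower. Over all genes tested, 7436 of 32783 had such a p and voom called 2425. Cyp21a1, the steroid 21-hydroxylase, had 101, 101 and 96.3 normalized counts in WT against 51.0, 45.7 and 49.4 in Ccdc117ko, so that the groups stood well apart. It fell by 1.02 on the log2 scale (SE 0.13, limma adjusted p = 0.0135). Without any 1 library other than WT replicate 1 the adjusted p was 0.0598 to 0.107. With a mean of at least 10 required it was up to 0.0119 whichever library was left out. Akr1b7, an aldo-keto reductase, had 2.90 ± 0.710 and 9.74 ± 2.50 (adjusted p = 0.0582, and 0.0442, past the threshold, with a pseudocount of 5 in place of 1) and Mrap 115 ± 22.2 and 157 ± 12.3 (adjusted p = 0.125). Cyp11b2, the aldosterone synthase, was at 0 in 5 libraries and had 5 reads in Ccdc117ko replicate 3. Its log2 difference of 0.86 enters the median of 0.66, which therefore rests partly on a gene near the floor. The summed level of the list was 201 to 239 in WT and 210 to 227 in Ccdc117ko. In that sum the lower level of Cyp21a1 and the higher mean of Mrap offset each other.

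Of 19 transcription factors linked to Leydig steroid genes, 1 rose, 2 fell and 16 did not pass the test, with a median of -0.10. Nr5a1 (SF-1), which drives steroidogenic genes, fell from 1960 ± 104 to 1653 ± 46.0 normalized counts (log2 difference -0.24, limma adjusted p = 0.0357), and Gata4, a factor of somatic gonad cells, from 1331 ± 31.6 to 1124 ± 19.5 (-0.24, adjusted p = 0.0239). With trends in length and GC content removed these were no longer called (adjusted p = 0.0706 and 0.0952). Crem, a cAMP-responsive factor abundant in spermatids, rose from 7931 ± 253 to 9380 ± 222 (0.24, adjusted p = 0.0173). Without WT replicate 2 or 3 or any 1 of the Ccdc117ko libraries all 3 calls were lost (0.0625 to 0.139). Without WT replicate 1 that of Nr5a1 was lost (0.0920). With a mean of at least 10 also required, Crem was called whichever library was left out (limma adjusted p up to 0.0213). For Nr5a1 it reached 0.0526 and for Gata4 0.0512.

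The 250 bases before the start sites of Hsd3b6 and Hsd3b1 are shown because the genes are neighbours that moved in opposite directions. They are from RefSeq on GRCm38.p6, 5′ to 3′ on the minus strand, at chr3:98814444-98814693 and chr3:98859795-98860044. Capitals mark the Gata letters AGATAA, read on either strand.
Hsd3b6: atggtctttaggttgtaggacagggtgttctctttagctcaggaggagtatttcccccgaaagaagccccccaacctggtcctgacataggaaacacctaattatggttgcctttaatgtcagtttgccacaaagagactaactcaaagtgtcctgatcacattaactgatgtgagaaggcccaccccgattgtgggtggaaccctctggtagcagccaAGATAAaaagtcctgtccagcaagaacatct
Hsd3b1: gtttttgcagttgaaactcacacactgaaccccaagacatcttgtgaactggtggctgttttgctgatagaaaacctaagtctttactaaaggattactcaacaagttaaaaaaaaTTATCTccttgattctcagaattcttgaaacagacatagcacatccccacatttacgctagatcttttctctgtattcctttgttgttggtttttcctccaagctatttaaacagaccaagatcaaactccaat
The match begins 31 bases before the start site in Hsd3b6, and in Hsd3b1, on the other strand as TTATCT, 134 bases before it. RefSeq windows of 300 bases, from 250 before to 50 after a start, were found for all 7 genes, 9 windows in all. It was in 5 of the 9, those of Hsd3b1, Hsd3b6, Hsd3b4 at 1 of its starts and Hsd3b3 at both near-identical starts, against 11.2% of 32851 windows. The Nr5a1 site AAGGTCA was in none of the 9, against 4.72% of all windows, and the longer Nr4a1 site AAAGGTCA that contains it in none, against 1.51%. The other Gata site searched, spelled TGATAA, was in none, against 9.05%. Other spellings of a Gata site, such as the TGATAG in the Hsd3b1 stretch, were not searched or marked. The cAMP response element TGACGTCA was in none, against 1.79%. Each was searched on both strands. TATAAA was in 1 of the 9, at Hsd3b4, after the start, against 13.6%. The Hsd3b6 and Hsd3b1 windows were identical in 50.6% of aligned columns, about as with the unrelated window of Hsd3b7 (50.7% and 48.5%). A match is a description of letters, not a bound site.

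The genes around the chromosome 3 isoforms were read beside them. Within 1 Mb of the 6 genes, 34 other genes were tested, of which none rose and 1 fell, with a median of -0.02. At an unadjusted p under 0.05 none were higher and 5 lower, voom called 0 higher and 1 lower, and limma with genes of a mean under 10 left out called 3 lower. Notch2 was the one that fell (log2 difference -0.30, limma adjusted p = 0.0463). Hao2, the gene next to Hsd3b1, differed by 0.18 (SE 0.22). Over all genes tested limma called 6.80%, and 3798 of 22878 with genes of a mean under 10 left out. An unadjusted p under 0.05 was found for 7436 of 32783, and voom called 2425 of 32783. Nothing particular to this region is read from these counts.

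The oxysterol and bile acid steps around Hsd3b7 were read beside it. None of 14 genes was called by limma or voom, and the median log2 difference was -0.09. At an unadjusted p under 0.05, 1 was higher and 1 lower, where 7436 of all 32783 genes tested had such a p. Hsd17b4, a peroxisomal enzyme of side-chain shortening, was the most abundant with 1755 ± 78.3 and 1580 ± 66.7 normalized counts (-0.15, adjusted p = 0.136), and Scp2, a sterol carrier with a thiolase form, had 1107 ± 44.3 and 1171 ± 18.5 (0.08, adjusted p = 0.385). Cyp7b1, the oxysterol hydroxylase upstream of Hsd3b7, was rare with 14.5 ± 3.76 and 10.5 ± 7.67. The sequence relatives Nsdhl, a cholesterol synthesis enzyme, and Sdr42e1 differed by 0.08 and -0.13 with neither called by limma or voom or at an unadjusted p under 0.05.

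Some markers of other testis cells moved with the genotype too, and their part in the Hsd3b differences was not tested. For comparison, limma called 6.80% of all genes tested and 18.5% of the 6732 genes averaging 1000 normalized counts or more. It called 3798 of 22878 with genes of a mean under 10 left out. Whether any somatic or germ cell list was called more often than other genes of similar level was not tested. Of 10 Sertoli markers 5 fell and none rose (median -0.22, summed level 9196 to 9339 in WT and 7629 to 8127 in Ccdc117ko), for example Kitl by 0.40 and Dhh by 0.29 on the log2 scale. Of 9 Leydig stem and progenitor markers 2 fell and none rose (median -0.31, 2255 to 2347 and 1782 to 1939). Of 7 macrophage markers 1 fell (median -0.28, 1888 to 2116 and 1534 to 1753), of 5 peritubular markers 1 fell (median -0.07, 4456 to 4653 and 3986 to 4489), and of 6 endothelial markers none was called by limma over all genes tested or by voom, with 1 lower at an unadjusted p under 0.05 (median -0.17, 1931 to 2165 and 1718 to 1922). With genes of a mean under 10 left out, limma called 2 macrophage markers and 1 endothelial marker lower. The latter was Sox17, a factor listed for endothelium (log2 difference -0.32, limma adjusted p = 0.0266, against 0.0855 over all genes tested). Its WT mean was 886 normalized counts, against 210 for Cdh5, 123 for Kdr, 81.8 for Tek and 70.3 for Pecam1 of the same list. The summed endothelial level therefore rests partly on Sox17. Whether the Sox17 reads came from endothelial cells was not tested.

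Among germ cell lists, of 7 spermatogonial markers 3 fell (median -0.36, 9665 to 10398 and 7688 to 8283), of 6 spermatocyte markers 2 fell (median -0.15, 29311 to 30656 and 27017 to 27137), and of 6 spermatid markers 4 rose (median 0.35, 182674 to 201286 and 189456 to 210030). With genes of a mean under 10 left out, 4 spermatogonial and 3 spermatocyte markers were called lower. Of 5 epididymal markers 3 were tested and none was called by limma or voom, with 1 lower at an unadjusted p under 0.05 (median -0.19, 162 to 194 and 133 to 174). None of the other cell type markers tested was at 0 in all libraries. All calls made over all genes tested in these germ cell and somatic lists depended on the libraries used. They were lost without WT replicate 2, WT replicate 3 or any 1 of the Ccdc117ko libraries (adjusted p 0.0598 to 0.188). Without WT replicate 1, 7 of them were lost (0.0530 to 0.124). With a mean of at least 10 required, most held whichever library was left out, such as Kitl (limma adjusted p up to 0.0226). Others did not, such as Dmc1 (up to 0.0682). With trends in length and GC content removed, 2 of the Sertoli markers and none of the progenitor, macrophage and peritubular markers were called.

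Finally, the genes whose pattern over the 6 libraries was most like that of each abundant isoform were found among 15158 genes whose mean reached 100 normalized counts, by the root mean square difference of centred log2 values. As they are chosen by likeness, no test is given. For Hsd3b6 the closest were Gm3883 (0.0897), Gm21093 (0.0912), Ass1 (0.0981), Itih2 (0.112) and Fam205a4 (0.114). Ass1, the argininosuccinate synthase, had 1338 ± 187 normalized counts in WT and 2571 ± 222 in Ccdc117ko, and Itih2, a heavy chain of the inter-alpha-trypsin inhibitor, 397 ± 66.9 and 729 ± 15.9 (SD, n = 3 each). Gm3883, Gm21093 and Fam205a4 share 89.6%, 100% and 98.6% of their 50-base words with other genes and Ass1 55.3%, so their counts are uncertain between copies, while Itih2 shares none.

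For Hsd3b1 the closest were Dynlt1b (0.0987), Dynlt1c (0.107), Helt (0.119), Cdon (0.122) and Sardh (0.122). Dynlt1b and Dynlt1c, dynein light chains, had 14185 ± 346 and 11855 ± 386 normalized counts in WT and 6814 ± 189 and 7015 ± 176 in Ccdc117ko, and share 83.2% and 93.7% of their words with other genes. Cdon, a cell surface receptor of hedgehog signalling, went from 208 ± 8.94 to 127 ± 1.03 and Sardh, the sarcosine dehydrogenase, from 379 ± 41.8 to 207 ± 5.97. Cdon and Helt share no words with other genes, and Sardh 2.73%.

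**Figure D5:**
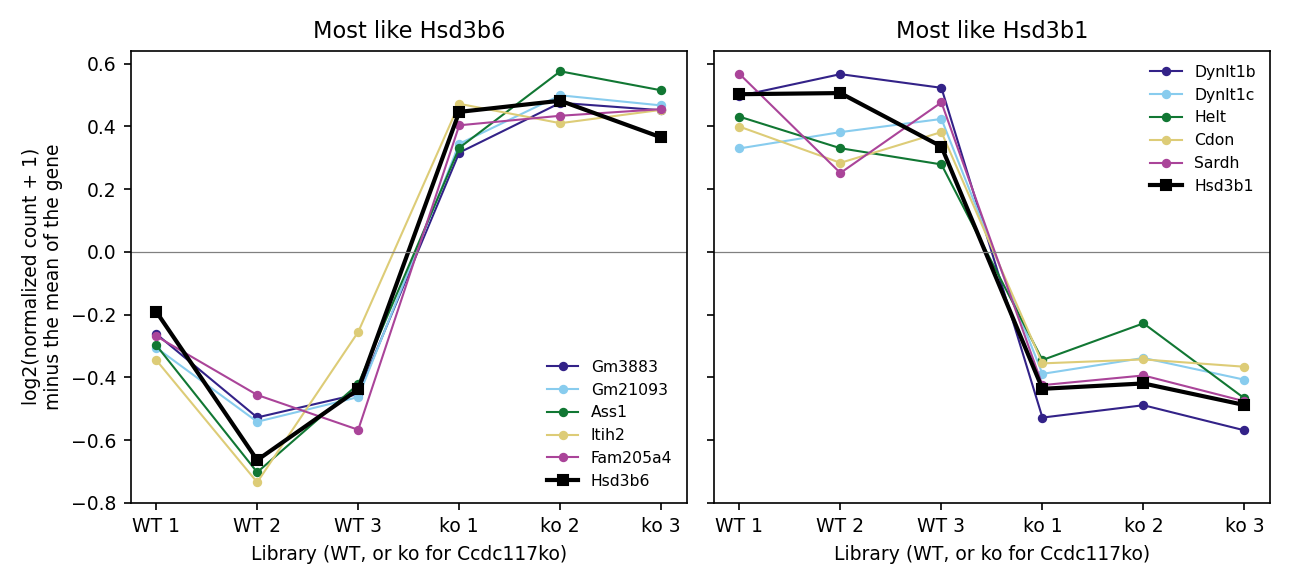
Log2(normalized count + 1) minus the mean of the gene, in each of the 6 libraries, for Hsd3b6 (left) and Hsd3b1 (right) in black and the 5 genes most like each in colour; lines only join the points of a gene. All genes of the left panel lie below 0 in the 3 WT libraries and above it in the 3 Ccdc117ko libraries, and those of the right panel the reverse.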

How the data were processed

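RNA from testes of 8-week-old mice, 3 libraries labelled WT and 3 labelled Ccdc117ko, was extracted with TRIzol, treated with DNase and sequenced on a HiSeq 2500 from stranded mRNA libraries, per the labels' protocols. STAR, DESeq2 and mm10 are named, without versions, per the submitters' processing notes. How reads were counted, and whether by strand, is not given in the sources used here.

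For 36652 genes the deposited table holds log2 values made by the authors in 6 library columns, taken here as log2(normalized count + 1) because of the values, since the header names no unit. Undone, all values under 200 reads were whole multiples of 1 step per library within 0.01, which gave whole reads. The p-value and FDR columns deposited by the authors, their group means and their log2 fold changes were not used.

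Genotypes were compared with limma 3.58.1 (R 4.3.3) with a trend on the deposited log2 values of 32783 genes whose mean reached 0.5 normalized counts, genotype only, with Benjamini-Hochberg adjustment over all of them and a threshold of 0.05. Log2 differences are on the log2(value + 1) scale, which understates changes of rare genes. The fit was also run on simulated data in which only genes with a mean of at least 10 were changed. No result rests on those runs, which do not cover changes in rarer genes. Total reads per library set the precision, and intervals and the floor of 3 reads cover counting error only. GENCODE M21 (GRCm38) gave lengths and coding sequences for 36551 matched gene IDs, and edlib 1.3.9.post1 aligned them.

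The genes, lists and tests were chosen with earlier results of these data known. Named genes are all Hsd3b genes, the genes of the pathway, Leydig, adrenocortical and relatives lists, up to 4 called genes of any other list or its 2 most abundant, and the 5 genes most like each of the 2 abundant isoforms. Cyp7b1, genes near Hsd3b1 and the copies of Hsd3b4 were named after their values were seen. Alternatives were other filters, pseudocounts and scalings, removed length and GC trends, a replicate block, voom on recovered reads and leaving out libraries.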

Additional observations from a re-analysis of the deposited data

How the results depend on the processing

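The number of genes called depended on the filter, the block and the number of libraries. It was 2228 over all genes tested, 703 with the replicate block and 3798 with a mean of at least 10 required. Over all genes tested, it was 1268 without WT replicate 1 and 6 to 22 without any 1 of the other libraries. With the filter of 10, it was 1714 to 4021 when 1 library was left out, lowest without Ccdc117ko replicate 2 and highest without WT replicate 1. Leaving out 1 library gave 0 to 2 called isoforms over all genes tested, and 2 each time with the filter of 10. The genes called in the lists, 27, were 12 with the replicate block and 0 to 20 with 1 library left out. Under that block the testosterone pathway kept 2 calls of 4. The replicate numbers are shared between the genotypes, but deviations of same-numbered libraries correlated at -0.080, -0.054 and 0.043 over 17549 genes. Only Ccdc117ko replicate 3 correlated best with its own number. The labels tie no number to a shared animal or day, so the block is no pairing by design. In fits with 1 library left out, 2 libraries stood for a genotype and shared the spread of the others. With the mean of at least 10, the adult Leydig markers had 3 calls in place of 1. No result reversed its direction with a call. The cause of these changes was not tested. The edgeR and DESeq2 fits that had been listed were not run, since the deposited values are on a log2 scale, and voom on recovered reads was added after seeing the data, as was the filter of 10 together with leaving out each library. Depth limits Hsd3b2, Hsd3b3, Hsd3b4 and Hsd3b5, which had at most 19 reads in any library.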
